A study of Homo sapiens with 3 samples.

Results

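Annotated introns of SART1, RAB34, NUTF2, NUPL1 and FBXW5 each held a site of DICER contact outside annotated small RNAs. The NUPL1 and FBXW5 sites also lay in an annotated exon of a further transcript, so their reads may come from either. By T-to-C conversions in the series-wide list, the 5 sites ranked between 1st and 20th. The ranking was among 264 intron sites outside small RNAs found in all 3 replicates. NUPL1 stood much lower in replicate 3. All clusters on the sense strand of these 5 genes that the files place in an intron were taken. They were 6 of 11577 clusters in replicate 1, 10 of 18065 in replicate 2, 6 of 5099 in replicate 3 and 5 of 8469 in the series-wide list. The genes were chosen by the number of T-to-C conversions of their intron clusters in these same lists. Conversions, reads and ranks therefore describe the sites and were not tested.

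The 3 samples form 1 group of replicates without a control: PAR-CLIP with RNase T1 of FLAG-tagged DICER. The cells were HEK293 T-Rex Flp-In, a human embryonic kidney line, and DICER was read through its tagged transgene rather than the native protein. In PAR-CLIP a photoreactive uridine analogue is linked by ultraviolet light to the bound protein, and the linked positions read as T-to-C conversions. Separate cultures are not stated for the replicates, so their spread may be technical. The lists held 1306125, 1060791 and 595487 conversions and 109404, 111514 and 29416 distinct reads in replicates 1, 2 and 3. Intron clusters were 28.8%, 40.7% and 41.1% of the clusters, and annotated small RNAs inside introns held 77.4%, 84.2% and 77.0% of the intron conversions. No RNA abundance was measured here, so a high count cannot be told apart from a plentiful transcript, and the cell line was not checked by marker levels. PCR copies cannot be told apart from separate molecules, so every count is of reads.

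DICER cuts hairpin precursors of microRNAs. Most such hairpins are first freed by DROSHA, but a mirtron is a short intron that folds into a hairpin once the spliceosome has released it, so its ends are the splice sites. A contact in an intron can thus lie on a hairpin of this kind, on another folded RNA or on an unfolded stretch. Of 14 mirtrons listed for comparison, MIR1226 in DHX30 and MIR1229 in MGAT4B had clusters in all 3 replicates. Their mature arms are shown because their place at the intron ends is what the sites of the 5 genes are compared with. Sequences are from RefSeq (GRCh38.p14), and capitals mark the seed, bases 2 to 8.
hsa-miR-1226-5p (chr3:47849555-47849580, plus strand): gUGAGGGCaugcaggccuggaugggg
hsa-miR-1226-3p (chr3:47849608-47849629, plus strand): uCACCAGCccuguguucccuag
hsa-miR-1229-5p (chr5:179798323-179798346, minus strand): gUGGGUAGgguuugggggagagcg
hsa-miR-1229-3p (chr5:179798278-179798300, minus strand): cUCUCACCacugcccucccacag
The 4 arms have 4 different seeds. Both hairpins, 75 and 69 nt long, begin with gu and end with ag, the usual letters of an intron's ends. All positions below are in hg19, the build of the files.

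The 22 intron clusters of the 5 genes in the replicate lists fell into 12 sites. Each gene had exactly 1 site that was found in all 3 replicates, 0 sites were found in 2 and 7 were found in 1. The recurrent sites took in 15 of the 22 clusters. Among all intron clusters outside small RNAs, 9.47%, 3.89% and 14.9% in replicates 1, 2 and 3 lay at such a site. Among all intron clusters, small RNAs included, it was 14.0%, 6.39% and 23.0%. Since recurrence helped to choose the genes, nothing is read from that gap. All 15 clusters had reads from both sequencing runs, as had 51.5%, 92.1% and 99.5% of all clusters in replicates 1, 2 and 3. Of the 15, 0 touched a repeat, a clustered small RNA or an annotated miRNA hairpin. Most other recurrent intron sites outside small RNAs were also free of repeats, with 16.2% touching one (42 of 259). No cluster lay on the opposite strand of any of the 5 sites in any list. This was not counted at other intron sites, so nothing is read from it. RefSeq (GRCh38.p14, in which NUPL1 is named NUP58) places 0 miRNA, snoRNA or snRNA genes within these 5 genes.

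SART1 encodes a protein of the U4/U6.U5 tri-snRNP, the particle that joins the spliceosome before its activation. Its site lay in intron 13 (chromosome 11, plus strand, 65744040 to 65744107 over the replicates) and had 469, 1150 and 507 conversions in replicates 1, 2 and 3, from 44, 101 and 30 distinct reads. Replicate 2 was the highest on both measures. The site held 0.0765% ± 0.0370 of all conversions in the lists (SD, n = 3). It was the only cluster of the gene in any list, so all SART1 conversions lay in this intron. The clusters were 53, 49 and 56 nt wide and their starts differed by up to 12 nt, but the crosslink centre, the single position the files give per cluster, was 65744073 in every list. The cluster that began at 65744040 carried the class of an annotated 5' splice site and the series-wide cluster that began at 65744041 did not. The crosslink centre thus lay 33 nt downstream of the last position marked as splice site.

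NUTF2, nuclear transport factor 2, brings the small GTPase Ran back into the nucleus. Its site in intron 3 (chromosome 16, plus strand, 67902316 to 67902383) had 275, 737 and 266 conversions from 66, 87 and 20 distinct reads, with the highest value in replicate 2 again. The mean was 426 ± 269 conversions (SD, n = 3), or 271 without replicate 2. All clusters began at 67902316, and the crosslink centre was 67902351 throughout, 35 nt into the cluster. Only the 3' end moved, by 10 nt. At 68, 67 and 58 nt these clusters were the widest of the 5 genes, and no splice site class was attached to them.

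NUPL1 encodes a nucleoporin of the central channel of the nuclear pore. Its recurrent site (chromosome 13, plus strand, 25906961 to 25907007) had 432, 187 and 25 conversions from 33, 27 and 4 distinct reads, and the values of the replicates lay far apart. The mean of 215 ± 205 conversions (SD, n = 3) was 106 without replicate 1. The crosslink centre was 25906984 in replicates 1 and 2 and 25906977 in replicate 3, 7 nt away, which made this the only one of the 5 sites whose centre moved. The files number the intron 13 or 12 according to the transcript and also list the place as exon 13 of a further transcript. The site carried the 3' untranslated region class in every list. Whether its reads came from the intron or from that exon cannot be told apart. NUPL1 had 5 of the 7 intron clusters found in a single replicate, all in replicate 2, with 4 to 35 conversions each. Of these, 4 shared with the main site the intron, exon 13 of the further transcript and the 3' untranslated region class. The intron thus reaches over at least 3426 nt and is far longer than a mirtron. The fifth lay in an Alu repeat of an earlier intron. In replicate 3 the site held 41.7% of the conversions of the gene, against 94.9% in replicate 1 and 72.2% in replicate 2, and the rest lay in a cluster of 35 conversions in the 3' untranslated region.

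RAB34 encodes a Rab GTPase that acts in membrane traffic and in the making of primary cilia. Its site (chromosome 17, minus strand, 27042964 to 27043010; intron 3 or 4 by transcript) had 1233, 134 and 116 conversions from 42, 25 and 5 distinct reads. Replicate 1 stood far above the others in conversions but by less in distinct reads, with 32.5 reads per distinct read there against 6.0 and 23.2 in replicates 2 and 3. The mean of 494 ± 640 conversions (SD, n = 3) was 125 without replicate 1. Every cluster ended at 27043010, the 5' end on this strand, and carried the 5' splice site class, and the crosslink centre was 27043009 in all lists, 1 nt inside that end. In replicate 1 a second, weak cluster in the same intron (27042920 to 27042950; 16 conversions, 2 distinct reads) carried the 3' splice site class. The clusters at both ends were 13 nt apart and together spanned 91 nt. No exon of the gene was listed for either, so the intron is at least 91 nt long. The files do not define how far a splice site class reaches from the junction.

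FBXW5 encodes an F-box and WD repeat protein that selects substrates for ubiquitin ligases. Its site in intron 5 (chromosome 9, minus strand, 139836950 to 139836991) had 169, 246 and 109 conversions from 18, 25 and 8 distinct reads. These were the closest values of any of the 5 genes, with shares of all conversions that differed by 1.79-fold at most, against 3.02-fold for SART1, 3.30-fold for NUTF2, 7.47-fold for RAB34 and 7.88-fold for NUPL1. The crosslink centre was 139836968 in every list, and the widths were 42, 30 and 30 nt. As for NUPL1, the files also list the place as an exon, here exon 5 of a further transcript. Whether the FBXW5 reads came from the intron or from that exon cannot be told apart. Without clusters that touch any exon, 3 recurrent sites remained, in SART1, RAB34 and NUTF2. At 62.5% of the other recurrent intron sites outside small RNAs (162 of 259), no cluster touched an exon.

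**Figure D1:**
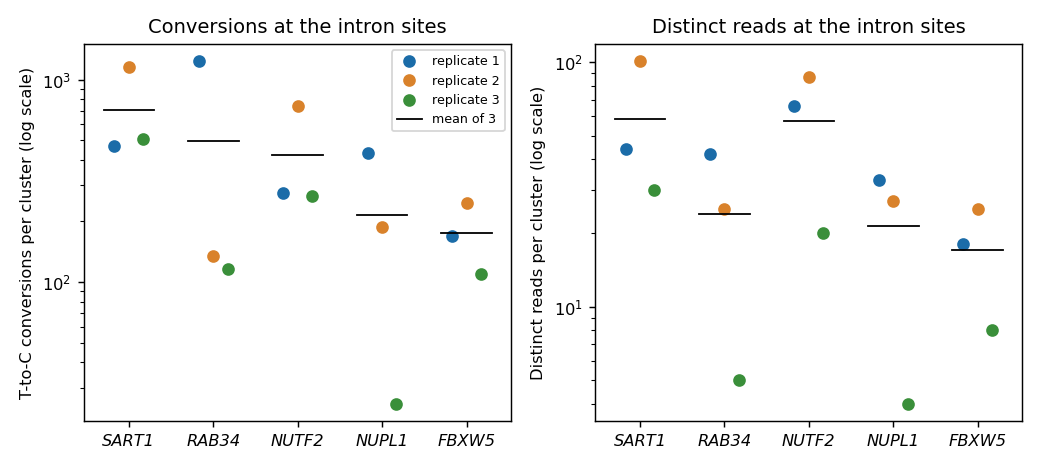
T-to-C conversions (left) and distinct reads (right) of the recurrent intron cluster of each gene, on log axes, with a point per replicate and a line at the mean of 3. Replicate 1 is highest for RAB34 and NUPL1 and replicate 2 for SART1, NUTF2 and FBXW5 in conversions, and replicate 3 is lowest in distinct reads for all 5 genes.

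The order of the genes by conversions was not the same in the 3 replicates. RAB34 came first in replicate 1 and last in replicate 2, while SART1 came first in replicates 2 and 3. SART1 exceeded NUTF2 and FBXW5, and NUTF2 exceeded FBXW5, in all 3 replicates, but over the replicates the range of SART1 (469 to 1150) overlapped that of NUTF2 (266 to 737). The range of NUTF2 lay above that of FBXW5 (109 to 246). The 15 clusters had 83.3 to 100 conversions per 100 reads, with medians of 96.7, 98.4 and 100 in replicates 1, 2 and 3. Such values were usual, with medians of 93.9, 100 and 100 at the other recurrent intron sites outside small RNAs. The number of positions with a conversion was 1 to 8 and was lowest in replicate 3 for every gene, with 1 position for RAB34 and FBXW5. Its medians were 5, 5 and 2, against 2, 2 and 1 at the other intron sites and 7, 6 and 2 at intronic miRNA hairpins.

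**Figure D2:**
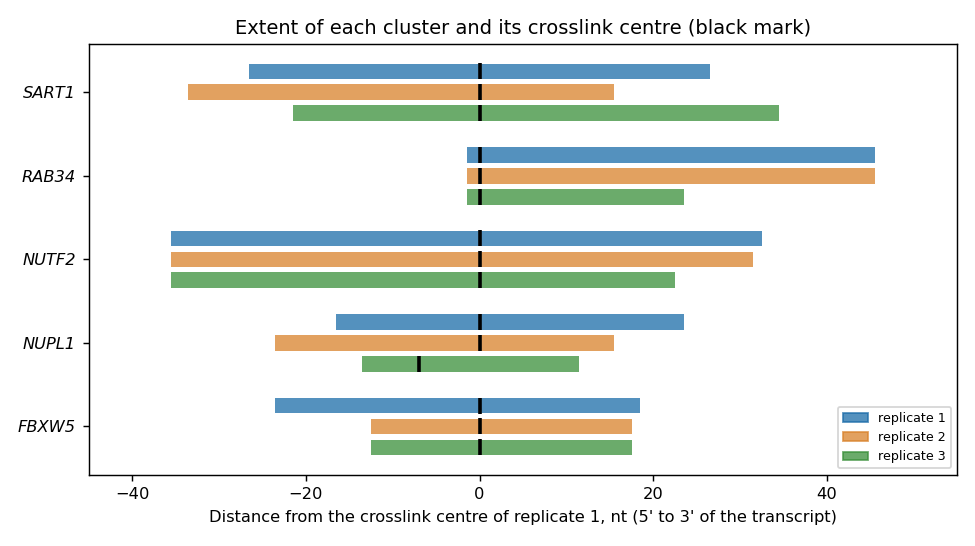
Extent of each cluster in nt from the crosslink centre of replicate 1, drawn 5' to 3', with a bar per replicate and a black mark at its crosslink centre. The centres coincide in all 3 replicates except for NUPL1, and the RAB34 bars begin 1 nt before the centre, whereas the others begin 6 to 35 nt before their own.

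The 5 sites were not the 5 strongest of their kind. Among 264 intron sites outside small RNAs that were found in all 3 replicates, ranked by conversions in the series-wide list, SART1 came 1st with 1619, RAB34 4th with 1308, NUTF2 6th with 1102, NUPL1 13th with 547 and FBXW5 20th with 393. These ranks rest on the pooled list and differed between replicates. Among all intron clusters outside small RNAs of replicates 1, 2 and 3 (2862, 6936 and 1838 clusters), SART1 ranked 5, 1 and 2 and NUTF2 ranked 21, 4 and 7. RAB34 ranked 1, 30 and 21, so that its high place rested on replicate 1. NUPL1 ranked 8, 15 and 625, and FBXW5 ranked 45, 11 and 24. By distinct reads RAB34 ranked 13, 34 and 74, so it was not first in replicate 1 on that measure. Among the 2284 intron clusters outside small RNAs of the series-wide list, ranks by distinct reads also differed. There NUTF2 ranked 2, SART1 5, NUPL1 30, RAB34 31 and FBXW5 37. In the pooled list, EDC4 (435) stood just above FBXW5 and ISYNA1 (391) just below it. Of the 5 strongest other sites, 4 lay in RPL37A (1488), SEPT11 (1173), PTPRN2 (976) and NBEA (929). The intron clusters of the 5 genes together held 4.25%, 4.34% and 2.40% of the conversions of intron clusters outside small RNAs in replicates 1, 2 and 3, and 1.84%, 1.40% and 1.54% of their distinct reads. Of all intron conversions, small RNAs included, they held 0.733% ± 0.210 (SD, n = 3).

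**Figure D3:**
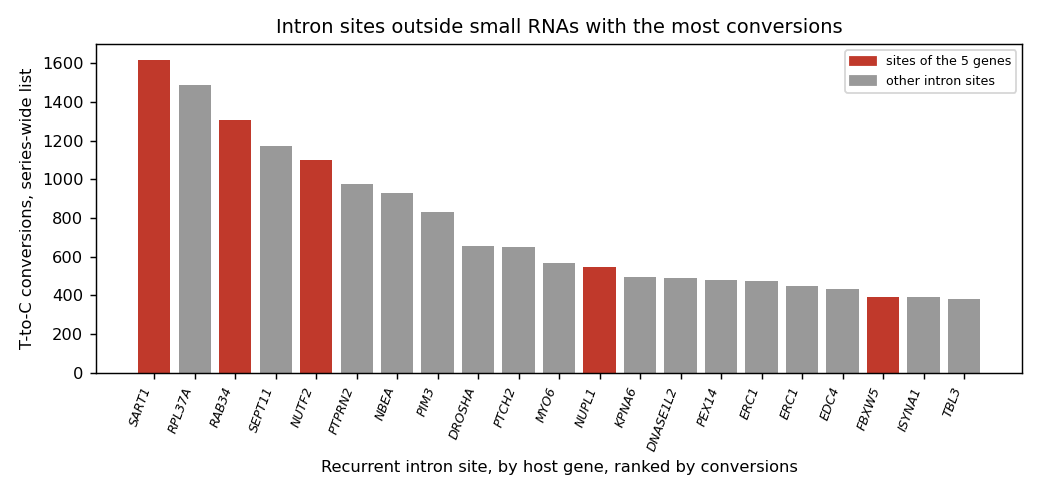
T-to-C conversions in the series-wide list at 21 of the 22 intron sites outside small RNAs that rank highest among those found in all 3 replicates, named by host gene. The sites of the 5 genes (red) range from 1619 in SART1 to 393 in FBXW5 and are mixed with other sites (grey).

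The crosslink centre fell on the same base in all 3 replicates at 4 of the 5 sites. The same was true of 39.0% of the other intron sites (101 of 259) and of 38.3% of the intronic miRNA hairpins (44 of 115). Among sites with more conversions the share was higher. Of the 71 other intron sites with at least 25 conversions in every replicate, the lowest value among the 5 genes, 57.7% had the same centre. The first base of the cluster was the same in all 3 replicates at 2 of the 5 sites (RAB34 and NUTF2), at 25.9% of the other intron sites and at 44.3% of the hairpins. Of the 71 other intron sites with at least 25 conversions, 38.0% had the same first base (27 of 71). With 5 sites chosen for their strength, these shares are descriptions without a test.

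The clusters of the 5 genes had median widths of 47, 47 and 30 nt in replicates 1, 2 and 3, against 37, 37 and 29 nt at the other intron sites and 60, 56 and 31 nt at intronic hairpins. The difference from other intron sites was 7 nt ± 5.20 (SD, n = 3), and 13.0 nt without replicate 3, where sites are matched over replicates 1 and 2 alone. The 71 other sites with at least 25 conversions had medians of 51, 48 and 33 nt, so the sites of the 5 genes were narrower in the median than these, by 4, 1 and 3 nt. Within the 5 genes, NUTF2 lay above the hairpin median and NUPL1 and FBXW5 below it in every replicate. Median distinct reads were 42, 27 and 8 at the 5 sites, 7, 7 and 2 at the other intron sites, and 29, 24 and 6 at hairpins. At the 71 other sites with at least 25 conversions they were 15, 18 and 6. The 5 sites were chosen by conversions, which rise with reads, so nothing is read from these gaps.

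**Figure D4:**
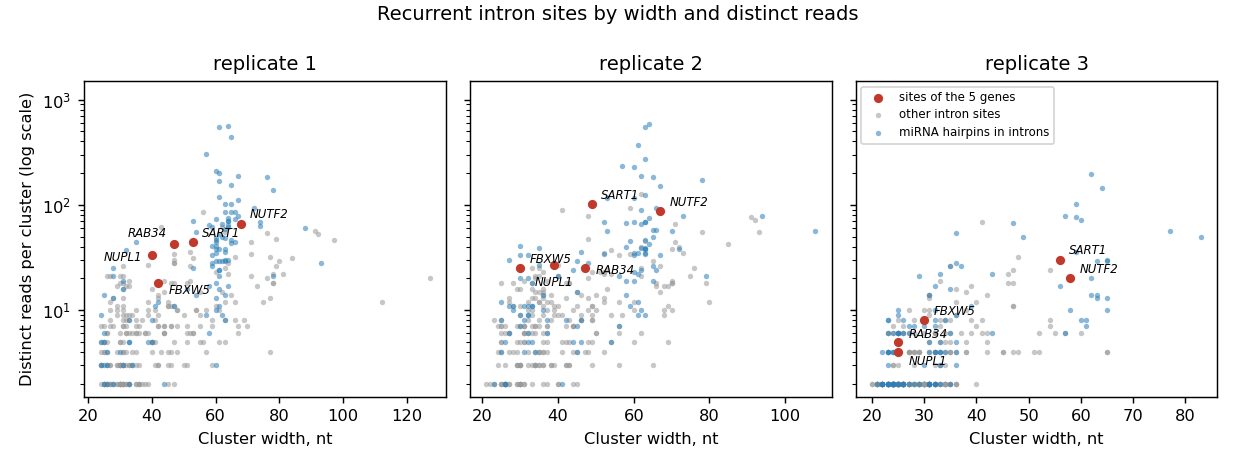
Cluster width in nt against distinct reads on a log axis, 1 panel per replicate, with a point for each intron site found in all 3 replicates. The sites of the 5 genes (red, named) lie at 40 to 68 nt in replicate 1, 30 to 67 nt in replicate 2 and 25 to 58 nt in replicate 3, and miRNA hairpins (blue) have medians of 60, 56 and 31 nt.

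Clusters of the known mirtrons lay at the 5' splice site. All 11 replicate clusters of the 5 mirtrons with any cluster carried the 5' splice site class, and 1 of them, on MIR1226 in replicate 1, also the 3' class. Of the 15 clusters at the recurrent sites of the 5 genes, 4 carried the 5' class, 3 in RAB34 and 1 in SART1, and 0 the 3' class. By site, this was 2 of 5, against 19.3% of the other intron sites (50 of 259). Among the 71 other sites with at least 25 conversions in every replicate it was 29.6% (21 of 71). The 3' class was on 0 of the 5 sites, on 6.95% of the other intron sites (18 of 259) and on 16.9% of those 71. With 5 sites, nothing is read from that 0. MIR1226 (chromosome 3, plus strand, 47891044 to 47891120) had 2370, 2556 and 2798 conversions from 182, 116 and 67 distinct reads, with more conversions than any of the 5 sites in any replicate. In replicate 1 its cluster was 76 nt wide with the crosslink centre 1 nt inside the 5' end, as in RAB34, while in replicates 2 and 3 the centre lay 30 and 31 nt inside. A centre 1 nt inside that end was not particular to RAB34 and mirtrons. A DNASE1L2 intron site outside the listed mirtrons began at 2287128, with its centre at 2287129, in all 3 replicates. MIR1229 (chromosome 5, minus strand) had 18, 4 and 39 conversions, below every value of the 5 genes save the 25 conversions of NUPL1 in replicate 3. The MIR1229 centre lay 11, 5 and 11 nt inside the 5' end in replicates 1, 2 and 3. By position, RAB34 shared with the mirtrons the 5' splice site class in every replicate. Its 3' splice site class was on a separate cluster of 2 distinct reads in replicate 1 only, whereas that of MIR1226 was on the same cluster as the 5' class. SART1 touched the splice site class in 1 replicate, and NUTF2, NUPL1 and FBXW5 showed neither class. Whether any of these introns folds into a hairpin was not tested.

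Genes of related function were counted in the same way. Across all genes, 8.45% of those with an intron cluster in any replicate had an intron site found in all 3. Of 15 other tri-snRNP genes, 8 had an intron cluster and 1, USP39, had a recurrent site, with 27, 4 and 4 conversions. Of 25 other genes of the nuclear pore and Ran transport, 16 had an intron cluster and 2 had a recurrent site. These were RCC1, the exchange factor of Ran, with 67, 13 and 74 conversions, and RANGAP1, which activates the GTPase of Ran, with 14, 29 and 43 on the annotated hairpin hsa-mir-6889. Of 25 other RAB GTPase genes 8 had an intron cluster, and of 9 other F-box and WD repeat genes 6 did, with 0 recurrent sites in either list. These counts are too small to be set apart from the share over all genes.

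For 4 of the 5 genes the intron site with the most similar profile is given over the 3 replicates, as the Euclidean distance of log2 shares of all conversions. NUTF2 was closest to PTPRN2 at a distance of 0.41, and FBXW5 to ISYNA1 at 0.68. NUPL1 was closest to an ERC1 site at 0.75. RAB34 had no near neighbour, since the closest, DROSHA, lay at 1.54. PTPRN2 had 231, 741 and 213 conversions and DROSHA 458, 151 and 169. With 3 values per site this likeness is a description.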

How the data were processed

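The authors deposited 1 cluster list per replicate and 1 for the whole series, whose clusters have reads of 2 or 3 replicates. Per the files' attributes, clusters were called at an estimated false discovery rate of 5%, and the replicate lists were filtered by length. Bowtie2 2.1.0 and hg19 are named in the submitters' processing notes. The main value is, per cluster, the authors' count of T-to-C conversions, not normalised. The deposited entropy score was read and not used.

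Clusters of different replicates were joined into a site when they overlapped by 1 nt or more with like strand, with Python 3.11.15 and pandas 2.3.3. The joining was tested on simulated data. Other intron sites exclude those with a cluster of an annotated small RNA class. Gene names were not used for this, and at least 1 site listed under a snoRNA gene remained among them. Sites with at least 25 conversions in every replicate and sites free of exons were set apart after values had been seen. Position classes and intron numbers are the files' own. The crosslink centre is the position given as ccr. Lists differ in make-up, and totals are of listed clusters, not depth. No statistical test was made. Counts carry counting error, and the spread is given as SD.

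Besides the 5 genes, the text names the 5 strongest other intron sites, their neighbours in rank and in profile, mirtrons, and related genes with a site in all 3 replicates, and 1 such intron site is not reported here. The genes, lists and rules were chosen with earlier results of these data known.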

Additional observations from a re-analysis of the deposited data

How the results depend on the processing

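The count of 5 recurrent sites stayed at 5 when clusters had to overlap by 50% of the shorter, with 3 or more distinct reads, in the series-wide list with reads from all 3 replicates, and without replicate 1, 2 or 3. It was 3 when clusters touching any exon were left out, an alternative added after the data were seen. It was 0 without exon, untranslated or coding classes, where the share of intron conversions was also 0 and no width could be given. In the files the coding and untranslated classes also cover the introns of coding transcripts, and 89.7% to 91.3% of exon-free intron clusters of the replicates carry one. The share of intron conversions held by the 5 genes was 0.203% of all clusters, 1.39% among exon-free introns and 3.67% outside small RNAs (the last 2 added later), and 0.618% to 0.824% without single replicates. By gene, the share for RAB34 was 0.189%, or 0.0514% without replicate 1, and that for NUPL1 0.0809%, or 0.0412% without replicate 1. On average 14.5% of intron clusters recurred, 34.5% with 3 or more distinct reads and 19.2% to 26.7% without single replicates, since then only 2 lists must share a site. The width difference of 7 nt was 1.33 nt with 3 or more distinct reads and 18.7 nt in exon-free introns, and 6.5 to 13.0 nt without single replicates. Against other sites with at least 25 conversions in every replicate, also added later, the difference was turned round, to -2.67 nt ± 1.53 (SD, n = 3). No other alternative turned it round. No paired analysis was possible because the samples form a single group. Replicate 3, with 29416 distinct reads, limits what can be said of ends and widths, and 4 or 5 distinct reads carry NUPL1 and RAB34 there.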

Other observations

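Among the 259 other intron sites found in all 3 replicates, 7 carried both the 5' and the 3' splice site class, a group looked at after the RAB34 values had been seen. Classes were taken over all clusters of a site, so both need not lie on the same cluster. Of the 7 sites, 6 lay in CKB, HUWE1, IFRD2, PPAN and, with 2 sites, DNASE1L2, and their widest clusters were 73 to 92 nt. The stronger DNASE1L2 site (chromosome 16, plus strand) began at 2287128 in all 3 replicates and had 303, 166 and 141 conversions in replicates 1, 2 and 3. In RAB34 the 3' class lay on a separate cluster in replicate 1, outside the recurrent site.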
